A study of Salmo salar with 6 samples.

Results

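Solute carriers are membrane proteins that move amino acids, sugars, ions, nucleotides, vitamins and metabolites across the plasma membrane and the membranes of organelles. The 160 genes described here are those among 25460 salmon genes matched to an array probe whose RefSeq symbol begins with slc and a digit, leaving out slc4a1b, slc22a6l and slc5a1. Of the 25460 genes, 8072 carried a gene name and the others only a locus number, so solute carriers without a name are not among the 160. Each gene was read at the probe with the highest mean signal, which mattered for slc25a28 alone, the only 1 of the 160 with 2 probes. The choice of probe did not use the levels by diet, whereas the set of genes was chosen with earlier results of these data known.

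The RNA came from the head kidney of juvenile Atlantic salmon of 252 g, an organ that makes blood cells, holds lymphoid tissue and secretes cortisol and catecholamines. Fish had eaten for 133 days a basal diet without additive (control, 0% inclusion) or the same diet with 0.1% of MPLE, a phytogenic additive of sage and lemon verbena that contained 10% ursolic acid, 3% other triterpenes and 2% verbascoside. RNA of 18 fish per diet was combined into 3 pools of 6 fish, and each pool was hybridised to 1 one-colour array. No genetic line is given in the labels, and a pool hides the spread among its fish.

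The 75th percentile of the signal, by which every array was scaled, ran from 133 intensity units in control pool 3 to 468 in control pool 2, and from 485 to 709 among the MPLE pools. Between 61 (control pool 3) and 123 (MPLE pool 2) of the 160 solute carriers were well above background on an array. A level below is the log2 signal relative to this percentile, and a difference is the mean level of the MPLE pools minus that of the control pools. Control and MPLE arrays lay on separate slides and positions and the control arrays were scanned first, so an effect of slide, of position or of scan order cannot be told apart from that of diet. Markers of the tissue were present, since all 9 leukocyte genes and all 7 red cell genes on the array were tested, as were 5 of 7 interrenal and chromaffin genes, star and hsd3b1 among them. Not tested were th, above background on 4 arrays, and cyp17a1, above background on 1, and pnmt was above background on 2 of the 3 control arrays. Median differences of the tested genes were 0.24 (leukocyte), 0.04 (red cell) and -0.03 (interrenal and chromaffin), and that of 4 liver genes was -1.76, with 0 genes of these lists at adjusted p under 0.05 by limma. At unadjusted p under 0.05, 2 leukocyte genes were higher and 1 lower, 1 red cell gene was higher and 1 lower, and 0 of the interrenal or liver genes reached it. Of all probes tested, 11.5% were higher and 5.89% lower at this threshold. Of 4 kidney tubule genes none could be tested, and lrp2a and lrp2b were above background on no array.

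In vertebrates each family of solute carriers has a typical cargo and place. Carriers of the slc25 family sit mostly in the inner mitochondrial membrane and exchange nucleotides, amino acids and other metabolites with the cytosol. The slc6, slc7 and slc38 families carry amino acids and some neurotransmitters, slc2 and slc5 mainly sugars, and slc30 and slc39 zinc. In head kidney such carriers supply dividing blood cell precursors with amino acids, sugars and the glycine and iron needed for heme.

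No solute carrier passed the adjusted threshold. By limma, 0 of the 81 tested reached an adjusted p under 0.05, against 0.467% of all 23130 probes tested, and the lowest adjusted p was 0.0558, for the potassium-chloride cotransporter slc12a7b. At an unadjusted p under 0.05, 14 were higher with MPLE (17.3%, against 11.5% of all probes tested) and 7 were lower (8.64%, against 5.89%). The lower count was 4 without MPLE pool 1, 4 without MPLE pool 2 and 3 without MPLE pool 3. Of all probes, 3.38%, 3.03% and 2.66% were lower in the same order. The higher count was 9 without MPLE pool 2, where 7.79% of all probes were higher. The values that follow are therefore differences that did not pass, with the arrays behind them.

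Of the other 79 genes, 28 were above background on no array and 51 on some arrays without covering either diet, so they are not described as absent. Of the 81 tested, 58 were above background on all 6 arrays and 23 were dim on at least 1 control array, 22 of them on control pool 3, the array of lowest signal. All 23 entered the test through the MPLE arrays. They include 8 of the 14 genes at unadjusted p in the higher direction, each dim on control pool 3 and above background on the other control arrays. Among the 58 genes above background everywhere, 6 were higher (10.3%, against 7.46% of probes measured in this way) and 7 lower (12.1%, against 6.65%) at unadjusted p. The diets did not overlap for 8 higher (13.8%, against 12.5%) and 8 lower (13.8%, against 14.5%). The median difference of these 58 genes was -0.04, and that of all probes above background on the 6 arrays was -0.13.

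**Figure D1:**
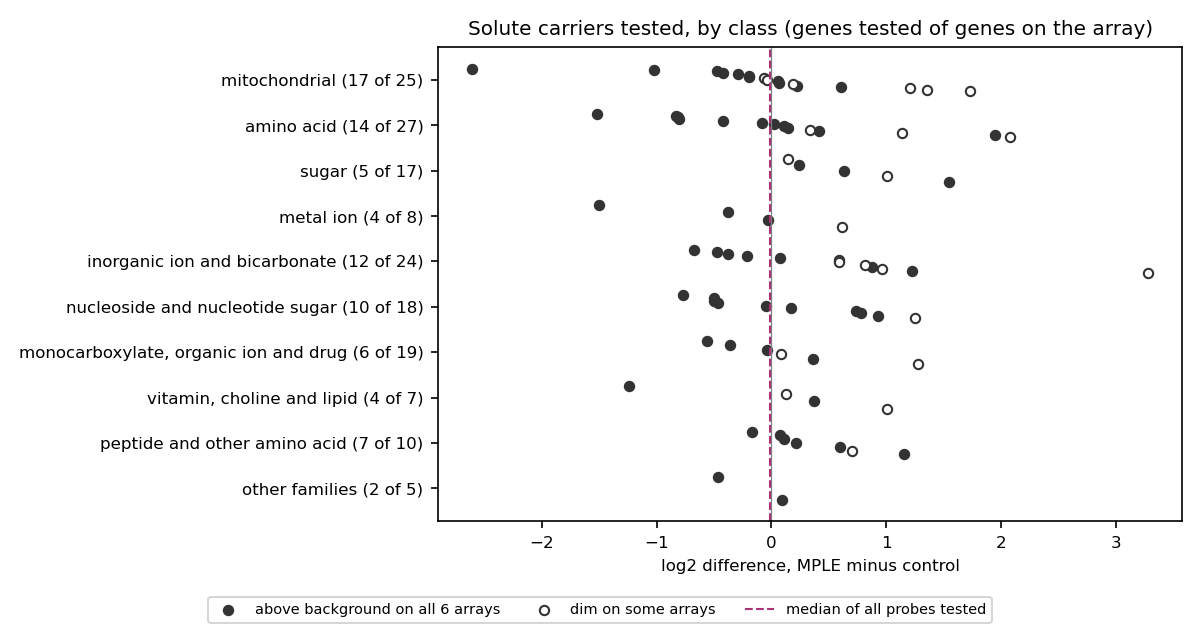
Log2 difference (MPLE minus control, x axis) of each of the 81 solute carriers tested, by class of cargo. Filled points were above background on all 6 arrays, open points were dim on at least 1 control array, and the dashed line is the median of all probes tested (-0.01). The points spread on both sides of that line in most classes, from -2.61 for slc25a4 to 3.28 for slc12a7b.

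Mitochondrial carriers differed most in slc25a4, the ADP/ATP exchanger of heart and skeletal muscle mitochondria in mammals, and in both genes named for the ornithine carrier, slc25a15a and slc25a15b. The 25 genes of the slc25 family gave 17 with a test and a median difference of -0.04, beside -0.01 for all probes. At unadjusted p, 3 of these 17 were higher with MPLE (17.6%, against 11.5% of all probes tested). In the other direction 2 were lower (11.8%, against 5.89%), and at adjusted p the count was 0. All 3 higher genes were dim on control pool 3 and entered the test through the MPLE arrays.

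The level of slc25a4 was -0.49, -0.92 and 1.13 in control pools 1, 2 and 3 and -3.04, -2.97 and -2.09 in MPLE pools 1, 2 and 3. Every MPLE pool lay below every control pool, and control pool 3 stood highest. The difference was -2.61 ± 0.56 (SE, n = 3 pools per diet; adjusted p = 0.0962), a level 6.09-fold lower with MPLE. The skeletal muscle genes tested had lower levels in MPLE pools as well. Of 6 on the array, 4 were tested and all 4 were lower with MPLE at unadjusted p, against 5.89% of all probes tested. Of those not tested, myoz1 was above background on no array. The other, atp2a1, was above background on 1 array of each diet and its pools overlapped. Muscle creatine kinase, ckmb, was at 2.70, 2.02 and 5.18 in the control pools and at -0.23, 0.12 and 1.02 in MPLE pools. The calcium store protein casq1b was at -0.25, -0.67 and 1.43 against -2.72, -2.72 and -1.78. The actinin actn3b was at -1.22, -1.35 and 0.80 against -2.93, -3.11 and -2.21, and the calcium pump atp2a1l at 2.95, 2.67 and 2.78 against 0.98, 1.14 and 2.43. Control pool 3 was the highest for slc25a4, ckmb, casq1b and actn3b, and control pool 1 for atp2a1l. The summed linear signal of the 6 muscle genes, in units of each array's 75th percentile, ran from 11.5 to 47.9 in control pools and from 3.16 to 7.98 in MPLE pools. Whether muscle tissue in the samples played a part in the slc25a4 result was not tested. In pooled tissue, fewer cells of a type and less RNA per cell cannot be told apart.

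The ornithine carrier brings ornithine into mitochondria for the urea cycle in mammals and for amino acid metabolism elsewhere. Its copy slc25a15a was at -0.92, -0.85 and -1.86 in the control pools and at 0.11, 0.39 and -0.04 in MPLE pools, a difference of 1.36 ± 0.34 (SE, adjusted p = 0.122). The copy slc25a15b was at -2.40, -1.80 and -0.59 against 0.09, 0.13 and 0.18, a difference of 1.73 ± 0.46 (SE, adjusted p = 0.131). The diets did not overlap for either copy, where 16.3% of all probes tested were higher without overlap. Both copies entered the test through the MPLE arrays. The MPLE pools of slc25a15b had an SD of 0.04 and its control pools one of 0.92. Both probes were dim on control pool 3, which held the lowest control level of slc25a15a (-1.86) and the highest of slc25a15b (-0.59). Copies this closely named may bind each other's transcripts, which was not tested.

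A further carrier on the higher side, slc25a17, belongs to the family but sits in the membrane of peroxisomes, where its human counterpart carries coenzyme A, FAD and other nucleotides. Its levels were -1.21, -2.10 and -2.65 in the control pools and -0.98, -0.60 and -0.77 in MPLE pools, a difference of 1.20 (adjusted p = 0.195), with a dim probe on control pool 3. On the lower side stood slc25a38b, a copy of the glycine carrier that feeds heme synthesis in red cell precursors, with -2.31, -1.91 and -1.12 against -2.89, -2.57 and -2.94. Its difference of -1.02 (adjusted p = 0.212) did not overlap between diets. It was 0.26 in the unscaled series values, where the median over all probes was 1.05, beside -0.01 in the main setting. The mitochondrial glutamate carrier slc25a18 had a difference of -0.47 (adjusted p = 0.43), with overlapping pools, and 0.19 in the same unscaled values. The other 11 tested lay between -0.43 for slc25a44b, a carrier of branched-chain amino acids, and 0.60 for slc25a26, the carrier of S-adenosylmethionine, and all 11 overlapped between diets.

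Iron enters mitochondria through the mitoferrins slc25a37 and slc25a28, of which the first serves developing red cells in zebrafish and mouse. The level of slc25a37 was -1.24, -1.48 and -1.18 in control pools and -1.38, -1.14 and -1.21 in MPLE pools, a difference of 0.06 (adjusted p = 0.905). The probes of slc25a28 disagreed. Its brighter probe, which represents the gene here, was at -1.08, -1.75 and -0.69 against -1.15, -0.94 and -0.77, a difference of 0.22 (adjusted p = 0.729). The second probe was at -1.63, -0.99 and -1.06 against -2.37, -2.56 and -2.71, a difference of -1.32 (adjusted p = 0.0902) with no overlap between diets. Both probes were above background on all 6 arrays.

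**Figure D2:**
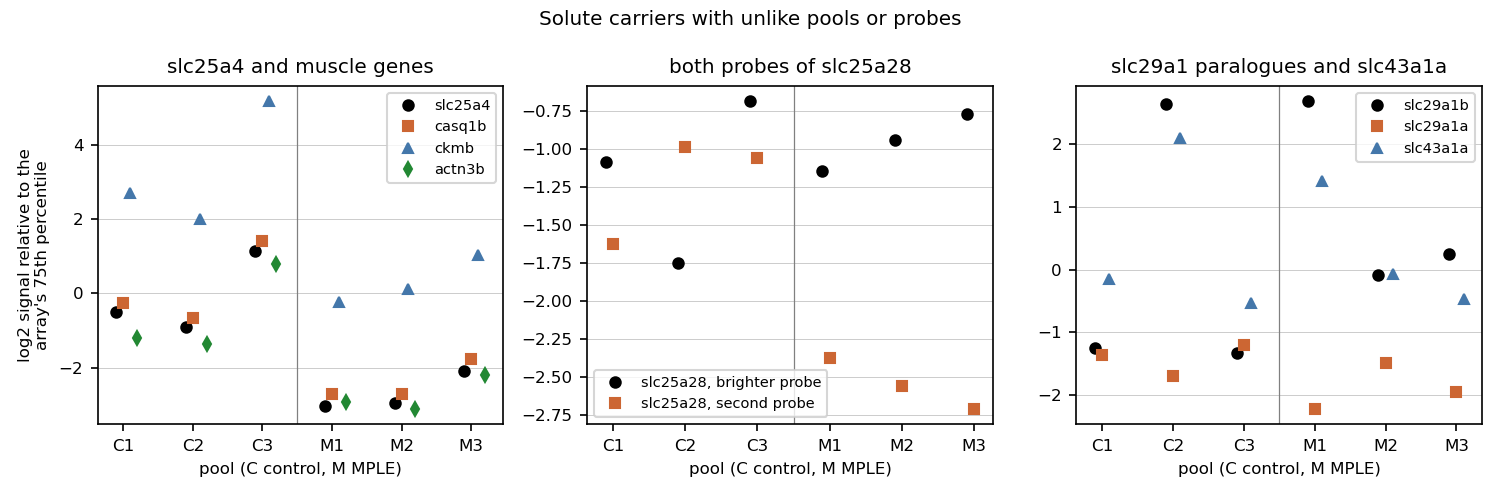
Log2 signal relative to the array's 75th percentile (y axis) in each control pool (C1 to C3) and MPLE pool (M1 to M3) for slc25a4 with 3 muscle genes, for both probes of slc25a28, and for slc29a1a, slc29a1b and slc43a1a. Each point is 1 array; heights may be compared within a gene and not between genes. Among control pools, pool 3 is highest for slc25a4 and the 3 muscle genes shown, the slc25a28 probes part in MPLE pools, and slc29a1b is high in control pool 2 (2.64) and MPLE pool 1 (2.69).

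Amino acid carriers included some of the lowest adjusted p-values among the solute carriers, in both directions. Of 27 genes on the array 14 were tested, with a median difference of 0.07. At unadjusted p, 2 were higher, the neutral amino acid transporter slc6a19 and the lysosomal arginine sensor slc38a9, and 3 were lower, slc6a4b, slc6a15 and slc38a5b. These are 14.3% and 21.4% of the 14, against 11.5% and 5.89% of all probes tested.

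The gene slc6a19 encodes B0AT1, which in mammals takes up neutral amino acids across the brush border of intestine and kidney tubule. Its level was -1.77, -1.52 and -2.95 in control pools and -0.09, -0.08 and 0.16 in MPLE pools, a difference of 2.08 ± 0.40 (SE, adjusted p = 0.0772). Every MPLE pool lay above every control pool. The probe was dim on control pool 3 and entered the test through the MPLE arrays, and without that pool the difference was 1.64. The 4 tubule marker genes had a summed linear signal of 0.0792 to 0.413 in control pools and 0.0919 to 0.116 in MPLE pools. Of these, cdh17 was above background on 2 control arrays and 0 MPLE arrays, cubn on 1 MPLE array, and lrp2a and lrp2b on none. Their part in the slc6a19 result was not tested.

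In mammals slc38a9 sits in the lysosome, senses arginine there and passes the signal to the kinase mTORC1. Its level was 3.92, 3.13 and 2.18 in control pools and 4.94, 4.73 and 5.40 in MPLE pools, well above background on every array. The diets did not overlap, and the difference was 1.95 ± 0.46 (SE, adjusted p = 0.111), 3.86-fold. It kept its sign in all 20 alternatives, from 1.50 to 2.61.

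The serotonin transporter slc6a4b clears serotonin from the surroundings of neurons and, in mammals, loads it into platelets. Levels were -1.45, -1.31 and -0.87 in control pools and -3.29, -2.57 and -2.33 in MPLE pools, a level 2.87-fold lower with MPLE (difference -1.52 ± 0.33, SE; adjusted p = 0.0978). The groups did not overlap. A neutral amino acid transporter known mainly from neurons, slc6a15, was at 0.79, 0.59 and 1.65 against 0.09, 0.36 and 0.10, a difference of -0.83 (adjusted p = 0.271). The glutamine and histidine carrier slc38a5b was at -2.56, -2.34 and -1.61 against -3.28, -2.74 and -2.92, a difference of -0.81 (adjusted p = 0.273). Neither overlapped between diets. Both turned positive in the unscaled series values, to 0.61 and 0.21, where the median over all probes was 1.05. The vesicle transporter slc6a17 had a difference of -0.81 (adjusted p = 0.318) with overlapping pools, and 0.077 in those unscaled values.

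The other 8 amino acid carriers tested overlapped between diets. Among them were the large neutral amino acid carrier slc7a5 (-0.42, adjusted p = 0.676) and its heavy chain slc3a2b (0.14, adjusted p = 0.853), which in mammals form 1 exchanger that supplies activated lymphocytes with leucine. Control pool 3 had the highest slc7a5 level, 3.46, where control pools 1 and 2 were at 1.32 and 1.99 and MPLE pools at 1.76 to 1.98. The taurine transporter slc6a6 was at -0.09 (adjusted p = 0.868). The widest of the 8 was slc6a14 at 1.14 (adjusted p = 0.575), with control levels from -5.65 to -1.85 and MPLE levels from -3.86 to -0.94.

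Genes that answer amino acid shortage through the factor ATF4 were set beside these carriers. Of 10 on the array 9 were tested, with a median of 0.04, and 0 passed the adjusted threshold. Where 11.5% of all probes tested were higher and 5.89% lower at unadjusted p, 1 was higher and 0 were lower. It was cebpb, a transcription factor also induced in inflammation, at 5.20, 4.71 and 5.19 in control pools and 5.82, 5.82 and 5.58 in MPLE pools (difference 0.70, adjusted p = 0.231). Asparagine synthetase, asns, had a difference of -0.34 and atf4 itself one of -0.36, with adjusted p of 0.543 and 0.549.

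Sugar carriers were mostly dim, with 5 of the 17 genes tested and 6 above background on no array. All 5 had a positive difference, as did 11398 of all 23130 probes tested, and their median was 0.64. Of the 5, 3 were above background on all 6 arrays. The others, slc5a6b and slc5a8, were dim on a control array and entered the test through the MPLE arrays. At unadjusted p under 0.05, 1 of the 5 was higher (20%, against 11.5% of all probes tested) and 0 were lower (against 5.89%). That gene, slc2a12, encodes GLUT12, a glucose transporter of the plasma membrane. Its level was 1.60, 1.19 and 0.17 in control pools and 2.80, 2.02 and 2.78 in MPLE pools, without overlap, a difference of 1.55 ± 0.43 (SE, adjusted p = 0.144) and 2.93-fold. A related transporter that in mammals is found in leukocytes and spleen, slc2a6, was at 1.90, 1.56 and 2.46 against 2.93, 2.56 and 2.34, where the highest control pool exceeded the lowest MPLE pool. Its difference was 0.64 (adjusted p = 0.346).

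Both slc5 genes tested carry no sugar in mammals. The multivitamin transporter slc5a6b, for biotin and pantothenate, had levels of -1.52, -1.67 and -3.43 against -1.32, -1.15 and -1.14. The diets did not overlap, its difference was 1.01 (adjusted p = 0.349), and the probe was dim on control pool 3. The monocarboxylate transporter slc5a8, above background on 2 of the 3 control arrays, differed by 0.14 (adjusted p = 0.91) and slc2a9l2, named after the urate transporter GLUT9, by 0.24 (adjusted p = 0.655). With overlapping pools, both turned negative with arrays centred on spike-in probes (-0.30 and -0.20) and after normexp background correction (-0.38 and -0.45), and slc5a8 also with array weights (-0.41), without control pool 3 (-0.18) and without MPLE pool 1 (-0.49).

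Of 5 genes of glucose uptake and phosphorylation on the array, 4 were tested, with a median of -0.09 and 0 past the adjusted threshold. At unadjusted p, 1 was higher (against 11.5% of all probes tested) and 1 was lower (against 5.89%). The glucose-6-phosphatase subunit g6pc3, which neutrophils need in human and mouse, was higher at unadjusted p, with -1.76, -0.83 and -2.41 in control pools and -0.08, -0.33 and -0.20 in MPLE pools (difference 1.46, adjusted p = 0.148). Its probe was above background on 2 of the 3 control arrays. Hexokinase 1, hk1, was lower at unadjusted p, with a difference of -0.80 (adjusted p = 0.276) and overlapping pools.

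**Figure D3:**
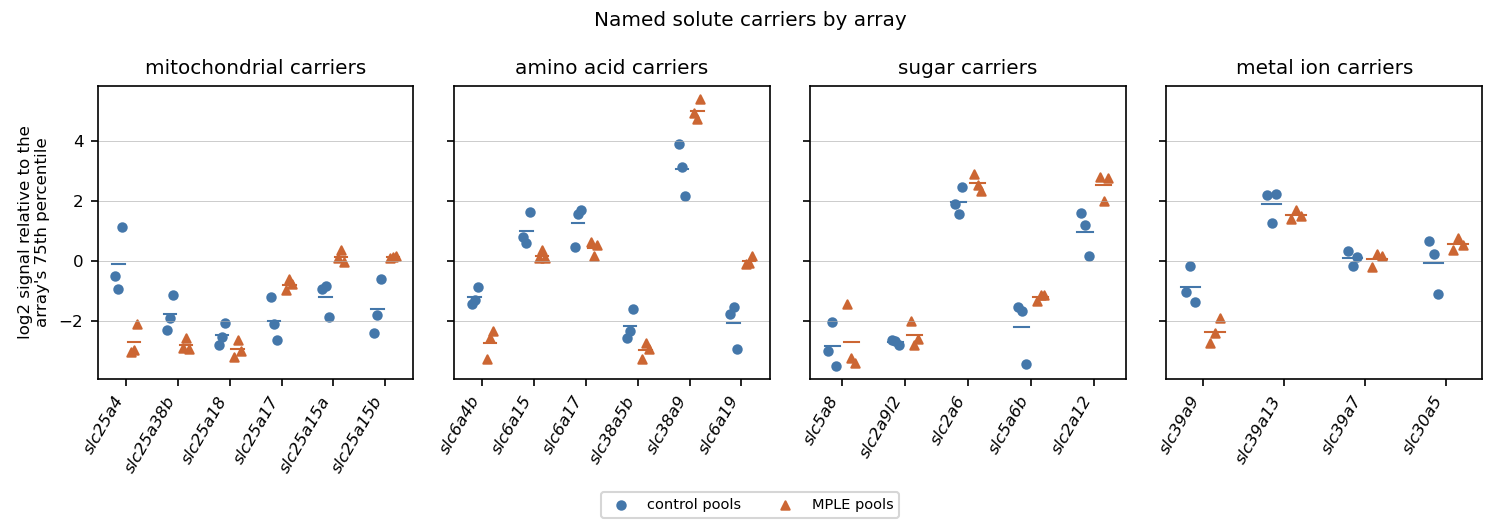
Log2 signal relative to the array's 75th percentile (y axis) of the named mitochondrial, amino acid, sugar and metal ion carriers. Circles are the 3 control pools, triangles the 3 MPLE pools and bars their means; heights may be compared within a gene and not between genes. The diets part without overlap for slc25a4, slc25a15a, slc25a15b, slc25a17, slc25a38b, slc6a19, slc6a4b, slc6a15, slc38a9, slc38a5b, slc2a12, slc5a6b and slc39a9. The genes shown were chosen by smallest p in each class, which favours genes that part. Of all probes tested, 16.3% were higher and 11.9% lower without overlap. Those of slc25a15a, slc25a15b, slc25a17, slc6a19 and slc5a6b entered the test through the MPLE arrays. The MPLE pools lie closer together than the control pools for most genes.

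Metal ion carriers numbered 8, of which 4 were tested and all 4 belong to the zinc families. Zinc importer slc39a9, ZIP9, was at -1.04, -0.16 and -1.36 in control pools and -2.75, -2.42 and -1.90 in MPLE pools. Every MPLE pool lay below every control pool, a level 2.84-fold lower with MPLE (difference -1.50 ± 0.39, SE; adjusted p = 0.129). The difference was negative in all 20 alternatives, from -1.94 to -0.69. The importer slc39a13, which moves zinc out of vesicles in mammals, had overlapping pools and a difference of -0.38 (adjusted p = 0.544). That difference was 0.38 in the unscaled series values, where the median over all probes was 1.05. Likewise slc39a7, which releases zinc from the endoplasmic reticulum, overlapped at -0.03 (adjusted p = 0.953), a value that turned positive in 5 alternatives. The exporter slc30a5, which loads zinc into the secretory pathway, was at 0.67, 0.24 and -1.09 against 0.39, 0.76 and 0.54, a difference of 0.62 (adjusted p = 0.486), and was above background on 2 of the 3 control arrays.

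Copper importer slc31a1 falls outside these families by number. Its levels were -2.10, -2.07 and -2.69 in control pools and -2.74, -2.71 and -2.80 in MPLE pools, without overlap, although control pool 3 nearly met the MPLE pools. The difference was -0.47 (adjusted p = 0.391), and 0.31 in the unscaled series values, where the median over all probes was 1.05. Heme carrier slc48a1a, which moves heme out of lysosomes when macrophages clear red cells in mammals, was at 1.12, 1.05 and 1.41 against 1.57, 1.70 and 1.44. It did not overlap at a difference of 0.38 (adjusted p = 0.431), and -0.066 with spike-in centring, where the median over all probes was -0.46.

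Among 14 genes of iron and zinc handling, 13 were tested, with a median of -0.15 and 0 past the adjusted threshold. At unadjusted p 0 were lower (against 5.89% of all probes tested) and 1 was higher (against 11.5%). That gene was bmp6, the signal that raises hepcidin in mammalian liver, at 1.04 (adjusted p = 0.121) and above background on 1 of the 3 control arrays. The iron hormone hamp had a difference of 0.67 (adjusted p = 0.32). The metallothioneins mt and mt2, which bind zinc and copper, had differences of 0.41 and 0.71 (adjusted p of 0.389 and 0.372). Transferrin receptor tfr1a differed by 0.04 (adjusted p = 0.958) with a value missing in MPLE pool 2, where its spots carried outlier flags.

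Carriers of inorganic ions and bicarbonate numbered 24, with 12 tested and a median of 0.59, beside -0.01 for all probes. Of the 12, 5 were dim on a control array, entered the test through the MPLE arrays and had positive differences. The 7 above background on all 6 arrays held all 4 negative differences and ran from -0.67 for slc26a10 to 1.22. At unadjusted p, 2 of the 12 were higher (16.7%, against 11.5% of all probes tested) and 0 were lower (against 5.89%). The first, slc12a7b, is named for the potassium-chloride cotransporter KCC4, which lets cells shed salt and regain volume. Its level was -2.19, -3.51 and -3.60 in control pools and -0.62, 0.77 and 0.41 in MPLE pools, a difference of 3.28 ± 0.51 (SE, adjusted p = 0.0558). All MPLE pools lay above all control pools. The probe was dim on control pool 3 and entered the test through the MPLE arrays, so the control mean includes a value near background. Control pool 2, at -3.51, was near background too, since the lowest spot well above background on that array was at -3.82. The slc12a7b difference was 3.03 without control pool 3 and ran from 1.73 to 5.13 over the 19 alternatives that gave a value. The sodium-potassium-chloride cotransporter slc12a2, which works the other way in mammalian cells, was at -1.93, -1.54 and -1.73 against -1.46, -0.91 and -1.06, a difference of 0.59 (adjusted p = 0.307) without overlap, and above background on 2 of the 3 control arrays.

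The anion exchanger slc26a6.2, of a family that trades chloride for bicarbonate and oxalate, was at -2.65, -3.31 and -3.08 in control pools and -1.84, -1.57 and -1.95 in MPLE pools. Its difference was 1.22 ± 0.27 (SE, adjusted p = 0.1) without overlap, but -0.21 after normexp background correction. Sodium-proton exchanger slc9a1b, which regulates the pH of the cytosol, had a control level of 0.41 in pool 3 beside 3.35 and 2.72 in the other control pools, and 2.92 to 3.12 in MPLE pools. Its difference was 0.87 (adjusted p = 0.519), and the other 2 control pools lay on either side of the MPLE pools. Of 4 sodium pump subunits on the array, which set up the gradient many of these carriers use, only atp1b1a was tested. It was at 2.84, 2.57 and 2.50 against 1.98, 2.43 and 2.41, a difference of -0.36 (adjusted p = 0.467). The symbol slc4a1ap, at 0.96 (adjusted p = 0.635), fits the rule by its letters but names a protein that binds a bicarbonate exchanger and is no carrier.

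Of 18 genes for nucleosides and nucleotide sugars, 10 were tested, 9 of them above background on all arrays. The median was 0.06. At unadjusted p 0 were lower (against 5.89% of all probes tested) and 3 were higher (30%, against 11.5%). All 3 belong to the slc35 family, which brings sugar nucleotides into the Golgi for glycosylation. The UDP-galactose carrier slc35a2 was at -1.10, -1.77 and -1.28 in control pools and -0.77, -0.48 and -0.70 in MPLE pools, a difference of 0.73 (adjusted p = 0.239). The UDP-N-acetylglucosamine carrier slc35a3a was at 0.29, 0.01 and -0.53 against 0.58, 0.86 and 0.67, a difference of 0.78 (adjusted p = 0.238). The third, slc35d2, was at -1.34, -2.04 and -3.38 against -0.91, -0.93 and -1.16, a difference of 1.25 (adjusted p = 0.268), with a dim probe on control pool 3. None of the 3 overlapped between diets, where 16.3% of all probes tested were higher without overlap. Other tested members of the family lay from -0.77 for slc35f1 to 0.17 for slc35a4.

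Equilibrative nucleoside transporters take up adenosine and other nucleosides. Copies slc29a1a and slc29a1b had unlike pools. Levels of slc29a1b were -1.25, 2.64 and -1.33 in control pools and 2.69, -0.08 and 0.25 in MPLE pools, a difference of 0.93 (adjusted p = 0.685). Control pool 2 and MPLE pool 1 stood well above the other pools of their diets. Its copy slc29a1a ran from -1.69 to -1.21 in control pools and from -2.22 to -1.49 in MPLE pools (difference -0.47, adjusted p = 0.422). The large neutral amino acid transporter slc43a1a was highest in the same pools as slc29a1b, with -0.15, 2.10 and -0.53 against 1.42, -0.06 and -0.46 (difference -0.17, adjusted p = 0.917). These genes were picked after their values were seen.

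Peptide and lysosomal amino acid carriers gave 7 tested of 10, with a median of 0.22. At unadjusted p 0 were lower (against 5.89% of all probes tested) and 1 was higher (14.3%, against 11.5%). That gene, slc15a4, moves histidine and peptides out of endolysosomes and is needed there for Toll-like receptor signalling in mouse immune cells. It was at -0.70, -1.39 and -2.11 in control pools and -0.50, 0.04 and -0.27 in MPLE pools, a difference of 1.16 ± 0.39 (SE, adjusted p = 0.206) without overlap. The amino acid carrier slc36a4 was at 2.99, 3.40 and 3.97 against 4.05, 4.06 and 4.04, where the MPLE pools differed among themselves by an SD of 0.0062 and the control pools by 0.49. Its difference was 0.60 (adjusted p = 0.351). The exporter of cationic amino acids from lysosomes, slc66a1, had a difference of 0.71 (adjusted p = 0.437) with overlapping pools, and was above background on 2 of the 3 control arrays.

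Carriers of monocarboxylates, organic ions and drugs numbered 19, of which 6 were tested, with a median of 0.02. The monocarboxylate transporter relative slc16a5a was at -2.32, -2.22 and -3.28 in control pools and -1.13, -1.10 and -1.76 in MPLE pools, a difference of 1.28 (adjusted p = 0.156) without overlap and with a dim probe on control pool 3. Organic cation transporter relatives slc22a15 and slc22a2 had overlapping pools and differences of 0.36 (adjusted p = 0.464) and -0.56 (adjusted p = 0.487). That of slc22a15 was -0.078 with spike-in centring, where the median over all probes was -0.46. That of slc22a2 was 0.72 in the unscaled series values, where this median was 1.05. Of the vitamin, choline and lipid carriers, 4 of 7 were tested. At unadjusted p, 1 was higher (25%, against 11.5% of all probes tested) and 1 was lower (25%, against 5.89%). In this class slc49a3, a relative of the heme and choline transporter FLVCR1, was at -3.54, -3.23 and -3.39 against -2.25, -2.31 and -2.60. Its difference of 1.00 ± 0.24 (SE, adjusted p = 0.115) did not overlap, its probe was dim on control pool 3, and normexp correction gave -0.047. The ascorbate transporter relative slc23a4 was lower at unadjusted p with overlapping pools, -0.08, 1.36 and 0.61 against 0.04, -0.79 and -1.07. Its difference of -1.24 (adjusted p = 0.234) was 0.18 in the unscaled series values, where the median over all probes was 1.05. The melanosome protein slc45a2, 1 of 2 tested among the 5 genes of other families, differed by 0.09 (adjusted p = 0.87), a value that turned negative in 5 alternatives.

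Proteins that work beside carriers were few on the array. The chloride exchanger subunit ostm1, whose partner bears no solute carrier name, was at 0.39, 0.42 and 1.04 in control pools and 1.45, 1.78 and 1.55 in MPLE pools, a difference of 0.98 (adjusted p = 0.153) without overlap. Embigin, emb, which escorts monocarboxylate transporters to the membrane, had overlapping pools and a difference of -0.63 (adjusted p = 0.589). Of 7 genes for the mitochondrial pyruvate carrier, porins and calcium uniporter, 6 were tested, with a median of -0.16. At unadjusted p 0 were lower (against 5.89% of all probes tested) and 1 was higher (against 11.5%). The outer membrane porin vdac1 was at 2.19, 1.65 and 2.30 against 2.58, 2.89 and 2.71, a difference of 0.68 (adjusted p = 0.266) without overlap. The porins vdac2 and vdac3 had differences of -0.14 and -0.31 (adjusted p of 0.807 and 0.606).

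Control pools were more spread than MPLE pools for solute carriers, with a median SD of 0.58 against 0.20, as they were for all probes tested, with 0.50 against 0.21. Control pool 3 was the highest control pool for 37 of the 81 tested solute carriers (45.7%, against 47.1% of all probes) and the lowest for 30 (37.0%, against 31.9%). The 3 solute carriers left out of the set, slc22a6l, slc5a1 and slc4a1b, had differences of -2.09, 1.14 and 2.22. Their adjusted p ran from 0.151 to 0.205. All 3 were at unadjusted p under 0.05, where 11.5% of all probes tested were higher and 5.89% lower. The probes of slc5a1 and slc4a1b were dim on all but 1 control array and entered the test through the MPLE arrays. That of slc22a6l was dim on an MPLE array and entered through the control arrays.

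Calls at the adjusted threshold depended on the model. Centring on the array median called 4 solute carriers, slc12a7b, slc6a19, slc38a9 and slc25a4, where 2.41% of all probes were called. Without control pool 3, slc6a19 and slc25a15b passed, where 0.731% of all probes did. Array weights, which down-weight uneven arrays, called 14 solute carriers, where 12.8% of all probes were called.

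**Figure D4:**
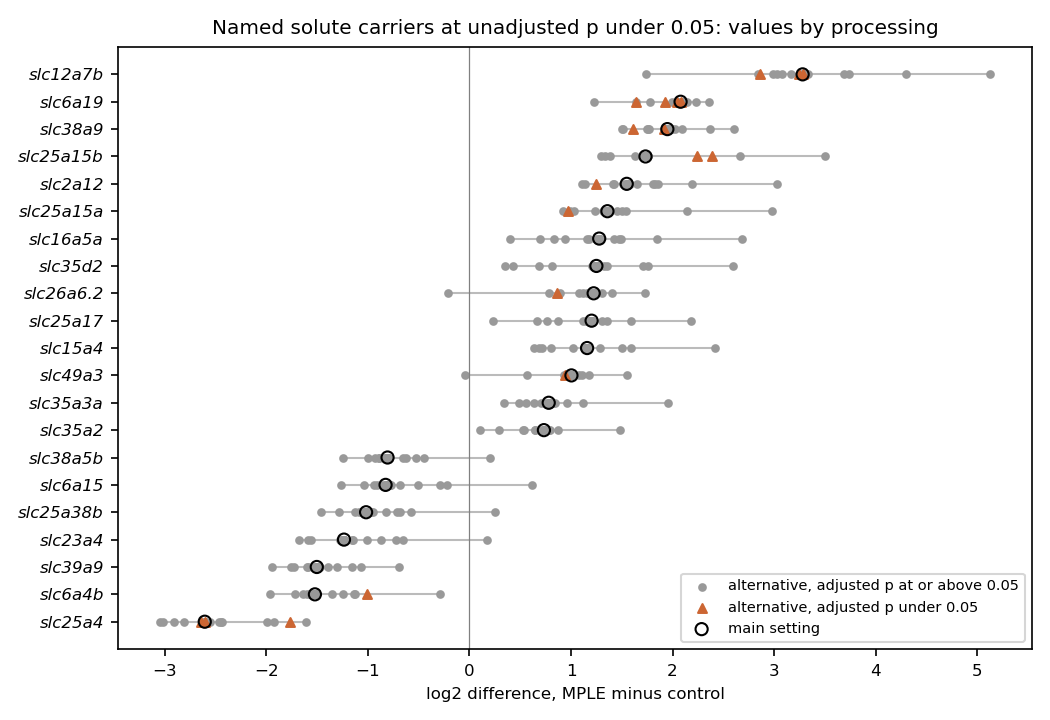
Log2 difference (MPLE minus control, x axis) of the 21 named solute carriers at unadjusted p under 0.05, 1 row per gene. Open circles are the main setting, small points the alternatives, triangles those alternatives with an adjusted p under 0.05, and grey lines join the lowest and highest. The values of slc26a6.2, slc49a3, slc38a5b, slc6a15, slc25a38b and slc23a4 cross 0 under 1 alternative each, and those of the other genes shown stay on 1 side. For slc38a5b, slc6a15, slc25a38b and slc23a4 it is the unscaled series values, where the median over all probes was 1.05.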

How the data were processed

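Head kidney RNA was measured in 6 pools, 3 per diet by the sample titles. Hybridisation was of Cy3 cRNA with spike-in RNA to one-colour Agilent arrays, per the labels' protocols. Per the file headers, arrays of design 084881 were scanned on a G2505C, and Feature Extraction 10.7.3.1 (protocol GE1_107_Sep09) gave a background-subtracted intensity per spot, not scaled between arrays. The authors' deposited series values are log2 of the background-subtracted intensity (within 5e-09), unscaled, with column medians from 5.19 to 7.52, and served as an alternative. The series text speaks of a reference design, whereas protocols and files have 1 colour, which was followed. P-values measure the spread between pools, arrays and labelling reactions together, and the tanks behind each pool are not given, so tank and diet cannot be told apart.

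The processed intensity was turned to log2, spots flagged as outliers (6 to 205 per array) were left out, each array's 75th percentile over spots that are not controls was subtracted, and repeat spots were averaged per probe. A probe was tested if all arrays of 1 diet or of both had it well above background, which held for 23130 of 42386. The test, two-sided, used lmFit and eBayes of limma 3.58.1 under R 4.3.3, with diet as the only term, and p-values were adjusted by Benjamini-Hochberg over these probes. This filter uses the diets, so a gene dim on a control array entered only if it was well above background on every MPLE array. The number of arrays limits the precision.

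RefSeq accessions in the probe names (40932 probes) were matched without version to RefSeq genes of assembly Ssal_v3.1, which gave a gene to 25641 probes. Coordinates are left out because the build on which the probes were designed is not given in the sources. No sequences are shown.

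The solute carriers, their classes and the lists of other genes were chosen with earlier results of these data known. Named were the 6 tested genes of smallest p in each of the mitochondrial, amino acid, sugar and metal ion classes (all where fewer were tested), 3 in each other class, and up to 3 genes at unadjusted p under 0.05 in each list of neighbouring genes. Other genes were named after their values were seen, including slc25a28, slc25a37, slc25a44b, slc25a26, slc7a5, slc3a2b, slc6a6, slc6a14, slc9a1b, slc4a1ap, slc35f1, slc35a4, slc29a1a, slc29a1b and slc43a1a. The marker lists for red cells and liver gave no gene past the adjusted threshold, and neither did the others. Alternatives covered normalization, background correction (normexp, offset 50), the filter, outlier spots, the deposited values, the model, the pool number as a block, each array left out and the mean over probes. A percentile over all spots, outliers included, was chosen after seeing the data. Same-numbered pools did not deviate together (correlations of -0.177, -0.34 and 0.0826), so pool numbers were not taken as pairs. With 3 pools per diet these correlations cannot exclude a pairing.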

Additional observations from a re-analysis of the deposited data

Results flagged for a closer look

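Spike-in RNA added to each labelling reaction holds no salmon transcript. It is read by 10 probes, and spike-in probes enter the solute carrier values only in the alternative that centred arrays on them. On the scale used for the solute carriers, the probe E1A_r60_3 had a mean of -4.78 ± 0.35 with the control diet and of -1.77 ± 0.23 with MPLE (SD over 3 arrays). The fitted difference was 3.01 (adjusted p = 1.86e-10 by limma over the 10 probes). The probe E1A_r60_n9 had means of 6.31 ± 0.75 and 8.57 ± 0.069 in the same order, higher by 2.26 on MPLE arrays (adjusted p = 1.21e-07). Of the 96 spots of E1A_r60_3 on the control arrays, 16 were well above background, so its control mean lies mostly near background and the size of its difference is not settled. The other 8 probes differed by -0.49 to 0.71 and did not pass. With arrays centred on the spike-in probes, the median of all probes tested was -0.46, beside -0.01 in the main setting. That centring was not run without E1A_r60_3 and E1A_r60_n9. The part of this spike-in difference in the solute carrier values was not tested.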

How the results depend on the processing

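Of the 38 named solute carriers, 21 kept the sign of their difference in all 20 alternatives that gave them a value, and 17 changed sign in at least 1, in 30 of 747 values. At adjusted p, the main setting called 0 solute carriers. Centring on the array median called 4, array weights 14, and the pool number as a replicate block 3 (slc12a7b at 3.28, slc6a19 at 2.08, slc25a4 at -2.61), where 2.05% of all probes were called. The pool numbers were not taken as pairs, so this block describes the fit alone. Leaving out 1 array gave 0 to 2, the 2 without control pool 3.

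At unadjusted p, 14 were higher and 7 lower. The share of all probes under the same setting stands in brackets. Higher counts of the 81 were 5 with spike-in centring (4.02%) and 8 with normexp correction (6.83%). With only probes above background on all arrays, 6 of 58 were higher (8.73%). Lower counts of the 81 were 19 with spike-in centring (31.6%) and 11 with array weights (14.3%). Without the filter, 13 of 160 genes were lower (4.15%) and 11 higher (5.54%). The lower count was 3 in the series values scaled to the 75th percentile (1.95%) and 1 unscaled (0.221%). Without 1 array, higher counts ran from 9 (without MPLE pool 2, 7.79%) to 17 (without control pool 3, 12.3%). Lower counts ran from 3 (without MPLE pool 3, 2.66%) to 8 (without control pool 2, 10.6%).

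The median of all solute carriers (0.11) became -0.33 with spike-in centring, -0.072 with normexp, -0.042 with probes above background on all arrays, 0.45 in scaled and 1.28 in unscaled series values. For mitochondrial carriers (-0.04) it was -0.48 with spike-in centring, -0.37 with normexp and 0.90 in unscaled series values. For amino acid carriers (0.07) it was -0.37 with spike-in centring, -0.14 with array weights, 0.42 in scaled and 1.26 in unscaled series values. For sugar carriers (0.64) it was 0.19 with spike-in centring, 0.089 with normexp, 1.22 in scaled and 2.06 in unscaled series values. The median of all probes tested (-0.01) was -0.46 with spike-in centring, -0.21 with normexp, 0.22 in scaled and 1.05 in unscaled series values. Without 1 array, the medians ran from -0.011 to 0.13 (all), -0.11 to 0.13 (mitochondrial), -0.13 to 0.15 (amino acid) and 0.39 to 0.77 (sugar). The causes were not tested.

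Differences that changed sign were as follows. The median of all probes was 1.05 in unscaled series values and -0.46 with spike-in centring. With spike-in centring, slc22a15 was at -0.078, slc45a2 at -0.35, slc2a9l2 at -0.20, slc5a8 at -0.30 and slc48a1a at -0.066. With normexp, slc26a6.2 was at -0.21, slc39a7 at 0.22, slc45a2 at -0.48, slc2a9l2 at -0.45, slc5a8 at -0.38 and slc49a3 at -0.047. In scaled series values, slc39a7 was at 0.62 and slc45a2 at -0.033. In unscaled series values, slc38a5b was at 0.21, slc6a15 at 0.61, slc6a17 at 0.077, slc39a13 at 0.38, slc39a7 at 1.45, slc25a18 at 0.19, slc25a38b at 0.26, slc22a2 at 0.72, slc31a1 at 0.31 and slc23a4 at 0.18. With array weights, slc45a2 was at -0.17 and slc5a8 at -0.41. With 1 array left out, slc39a7 ran from -0.17 to 0.098 (positive without control pool 1 or MPLE pool 1), slc45a2 from -0.11 to 0.21 (negative without control pool 3) and slc5a8 from -0.49 to 0.56 (negative without control pool 3 or MPLE pool 1). Slide as a block was not run, since each slide carried 1 array.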
